A study of Homo sapiens with 20 samples.

Results

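The 8 genes RFC2, ACAA1, BRD3, DDX11, TRAPPC12, ENDOV, NCOA1 and JMJD4 were taken as those with the largest gains of exon inclusion when hnRNPA1 was overexpressed. They were chosen from 251 skipped-exon events in a table that the authors made with MISO, a program that estimates from RNA-seq reads the fraction of transcripts that include an exon. The choice used the inclusion values themselves, so these are given below as a description without a test. A gene was attached to an event by the iCLIP peaks that lie inside the event's span, which runs from the outer end of the exon before the skipped exon to the outer end of the exon after it. The largest gains between 1 control and 1 overexpression library ran from 0.57 for JMJD4 to 0.63 for RFC2. The list is not strictly the top 8: an event whose gene ID had no symbol (0.69) and one in ZNF480 (0.61) lay above most members, and events of ARIH2, ZNF121 and PPP3CA and 1 event without a peak tied with JMJD4 at 0.57. The event just below, in GATD1-DT, gained 0.56.

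All libraries came from TREX FLP-In 293T cells, a human embryonic kidney line that carries a docking site for a transgene; titles of the RNA-seq samples call the line HEK293 TREX FLP-In. Control cells held hnRNPA1 at its endogenous level, and overexpression cells induced T7-tagged hnRNP A1. Per the labels both were under tetracycline for 24 h, after 3 days of drug selection that differed in part between them (blasticidin and zeocin, or hygromycin for the inducible line). The RNA-seq control libraries carry a code prefix that the iCLIP libraries use for the inducible line, and whether these controls were parental cells or uninduced inducible cells is not given in the sources used here. Polyadenylated RNA was sequenced in 2 control and 2 overexpression libraries. iCLIP, in which RNA crosslinked to a protein by ultraviolet light is immunoprecipitated and sequenced, was done on nuclear extracts for hnRNPA1 (2 libraries per condition), U2AF2 (3 per condition) and SRSF1 (3 per condition). Nothing in the labels says that libraries of 1 condition came from separate cultures, so their spread may be technical.

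Depth differed strongly between conditions. Reads in peaks numbered 2508821 to 2973275 per hnRNPA1 library of control cells and 549365 to 575471 with overexpression, and U2AF2 went the other way, with 702563 to 1158060 and 2317615 to 3657197. SRSF1 libraries held 125082 to 173766 and 175293 to 329448. Peaks were listed from 6 reads upwards (from 3 in U2AF2 overexpression replicate 3), so weak sites are easier to list in the deeper libraries. Of the markers of this cell line VIM and LIN28B had peaks in 14 and CDH2 in 15 of the 16 iCLIP libraries, whereas KRT18 and NEFM had none and KRT8 had peaks in 1. Of the blood markers only LYZ had peaks, in 13 libraries, and the liver and muscle markers had none.

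A cassette exon is either kept or skipped, depending on how well its splice sites are recognised. U2AF2 binds the pyrimidine tract before the 3′ splice site and starts recognition of the exon, SRSF1 binds purine-rich exonic enhancers and favours inclusion, and hnRNPA1 binds motifs with a UAGG core and often favours skipping. The genes have unrelated products. RFC2 is a subunit of the clamp loader that places PCNA on DNA, and DDX11 is a DNA helicase of sister chromatid cohesion. ENDOV cuts nucleic acid at inosine, and ACAA1 is the peroxisomal thiolase of fatty acid oxidation. BRD3 is a BET reader of acetylated histones, NCOA1 is a coactivator of nuclear receptors, TRAPPC12 is a subunit of a trafficking complex, and JMJD4 is a hydroxylase of a translation termination factor.

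The skipped exons could be placed for some genes. The table gives only the outer ends of each event (hg19), so the cassette exons were sought in GENCODE release 29 as exons whose neighbours lie the same distance apart as the span, within 2 nt. ACAA1 had 1 candidate, of 43 nt, and BRD3 had 1 of 236 nt. TRAPPC12 had an exon of 101 nt and a form of it with 104 nt. RFC2 had separate candidates of 102 and 107 nt in coding transcripts, and ENDOV had a coding candidate of 40 nt beside non-coding ones of 106 and 165 nt. NCOA1 had a candidate of 57 nt. For DDX11 only a transcript that skips the exon matched. The exons of 3 genes are shown 5′ to 3′, from the GENCODE transcripts: that of ACAA1 for its high inclusion in both overexpression libraries, and those of TRAPPC12 and RFC2 because U2AF2 peaks lie at or before them. Neither of the motifs searched below occurs in them, so no base is in capitals.

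ACAA1, 43 nt: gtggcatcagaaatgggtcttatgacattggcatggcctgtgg
TRAPPC12, 101 nt: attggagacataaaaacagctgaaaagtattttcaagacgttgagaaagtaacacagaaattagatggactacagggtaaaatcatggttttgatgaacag
RFC2, 102 nt candidate: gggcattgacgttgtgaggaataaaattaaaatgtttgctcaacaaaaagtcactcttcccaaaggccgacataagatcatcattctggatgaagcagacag

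The purine-rich motif GAAGAA (sense strand) did not occur in these exons, and 2.68% (43 nt), 11.1% (101 nt) and 12.8% (102 nt) of internal exons of the same length in protein-coding transcripts hold it. TAGG, the DNA form of the hnRNPA1 core (sense strand), was found in none of them either, and 2.68%, 7.61% and 8.41% of exons of those lengths hold it. The ACAA1, TRAPPC12 and BRD3 exons have lengths that are not multiples of 3. Annotated transcripts that join the outer exons directly were classed as targets of nonsense-mediated decay in ACAA1 (4 transcripts), RFC2 (1), DDX11 (1) and TRAPPC12 (1). That pathway removes transcripts with an early stop codon. The RFC2 transcript lacks both coding candidates, so it does not show the effect of skipping the 102 nt candidate alone, whose length is a multiple of 3. Other RFC2 transcripts hold 2 exons between the outer ones, 1 coding and 1 of the decay class. ENDOV had 1 skipping transcript of that class and 1 coding, and 3 coding ones with 2 exons between. The 3 skipping transcripts of NCOA1 were coding.

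The JMJD4 event fits exons of another gene. No JMJD4 transcript had exons that fit its span (chr1:227916240-227922055), whereas SNAP47, a gene of a SNARE-type protein on the opposite strand, had a trio of exons of 248, 163 and 1964 nt that did. Another event in the table starts at the same base and runs to 227947186, with inclusions of 0.62 and 0.45 in control and 0.87 and 0.72 in overexpression libraries. The event was attached to JMJD4 because that gene held most of the iCLIP reads in the span, 142 on the minus strand against 34 of SNAP47 on the plus strand. It is called the JMJD4/SNAP47 event below.

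Inclusion of the ACAA1 exon was high and nearly equal in both overexpression libraries. In ACAA1 (chr3:38170781-38173496, minus strand) inclusion was 0.30 in control library 2 and 0.88 and 0.90 in the overexpression libraries, while control library 1 had no value. It was the only member past the authors' thresholds (an inclusion change of 0.33 or more, with a Bayes factor of 5 or higher) in every pair listed for it, with Bayes factors of 27.7 and 5840 in the authors' deposited table. ACAA1 also had the largest gain of means in the table, 0.59.

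NCOA1, ENDOV and DDX11 also lacked control library 1. In NCOA1 (chr2:24985556-24993570, plus strand) inclusion was 0.31 in control library 2 and 0.89 and 0.69 with overexpression. In ENDOV (chr17:78389450-78397432, plus strand) it was 0.19 in control library 2 and 0.47 and 0.77 with overexpression. In DDX11 (chr12:31227154-31231471, plus strand) it was 0.08 in control library 2 and 0.68 and 0.30 with overexpression. Both overexpression libraries lay above the only control value in all 3 genes, but in DDX11 they differed from each other by 0.38, almost as much as the gain of means of 0.41. In each of these 3 genes 1 of the 2 listed pairs passed the authors' thresholds. DDX11 has a near-identical pseudogene copy (DDX12P), so its reads are uncertain.

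In RFC2, BRD3 and TRAPPC12 the gain rested on control library 1. In RFC2 (chr7:73657476-73664110, minus strand) inclusion was 0.32 and 0.94 in control libraries 1 and 2 and 0.93 and 0.95 with overexpression. In BRD3 (chr9:136901154-136907073, minus strand) it was 0.32 and 0.92 in control and 0.92 and 0.84 with overexpression. In TRAPPC12 (chr2:3469368-3482704, plus strand) it was 0.34 and 0.87 in control and 0.94 and 0.86 with overexpression. Control library 2 lay among the overexpression libraries in these 3 genes or beside them. The gains of means were 0.31, 0.26 and 0.295. Without control library 1 they were 0, -0.04 and 0.03, so the BRD3 difference turned its sign.

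The JMJD4/SNAP47 event was the only one of the 4 members with values in all libraries whose groups did not overlap. Inclusion was 0.36 and 0.66 in control and 0.93 and 0.80 with overexpression, a gain of means of 0.355 that was 0.205 without control library 1. Of all 173 events with 4 values, 14.5% had both overexpression libraries above both controls.

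**Figure D1:**
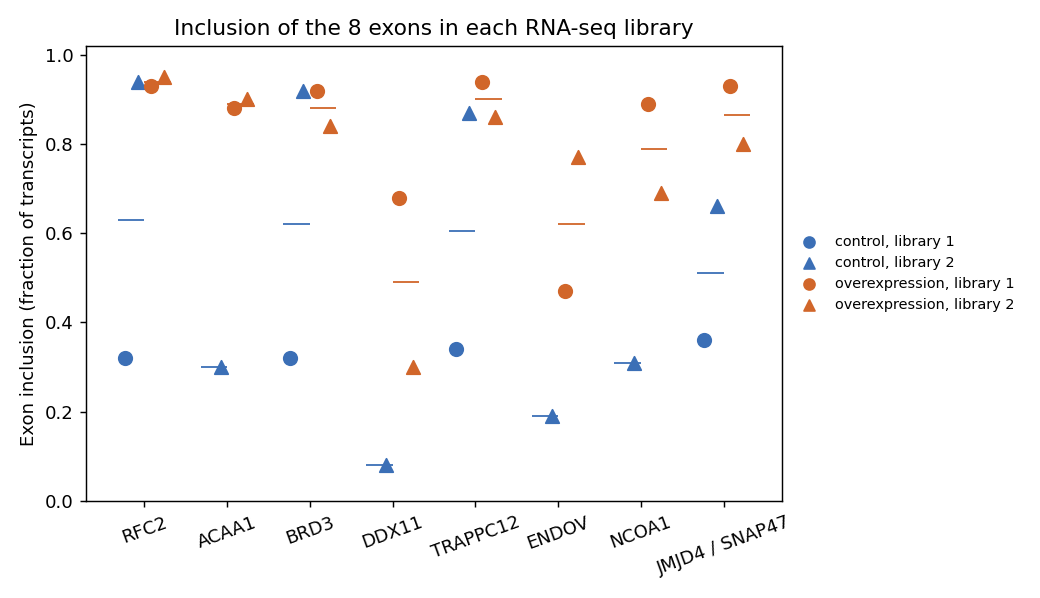
Exon inclusion (fraction of transcripts, y axis) of the 8 events in each RNA-seq library. Points are libraries (circles library 1, triangles library 2; blue control, orange overexpression) and short lines are condition means. ACAA1, DDX11, ENDOV and NCOA1 have 1 control value, and in RFC2, BRD3 and TRAPPC12 control library 2 (0.94, 0.92 and 0.87) lies with the overexpression libraries.

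The spread between the control libraries was a feature of the whole table. Over the 173 events with 4 values the control libraries differed by a median of 0.31 and the overexpression libraries by 0.09, and the control pair lay further apart in 71.7%. Control library 1 had no value in 77 of the 251 events, and control library 2 had a value in all. Of 65 such events with a gain past the thresholds in at least 1 pair, 45 passed only against control library 1. RFC2, BRD3, TRAPPC12 and the JMJD4/SNAP47 event belong to these 45. Over all 251 events 38.6% had a gain past the thresholds in at least 1 pair. The median difference of means over all events was -0.21, against 0.38 in the members, which were chosen for it. The read numbers behind the inclusion values are not in the table, so the depth of each value is unknown.

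**Figure D2:**
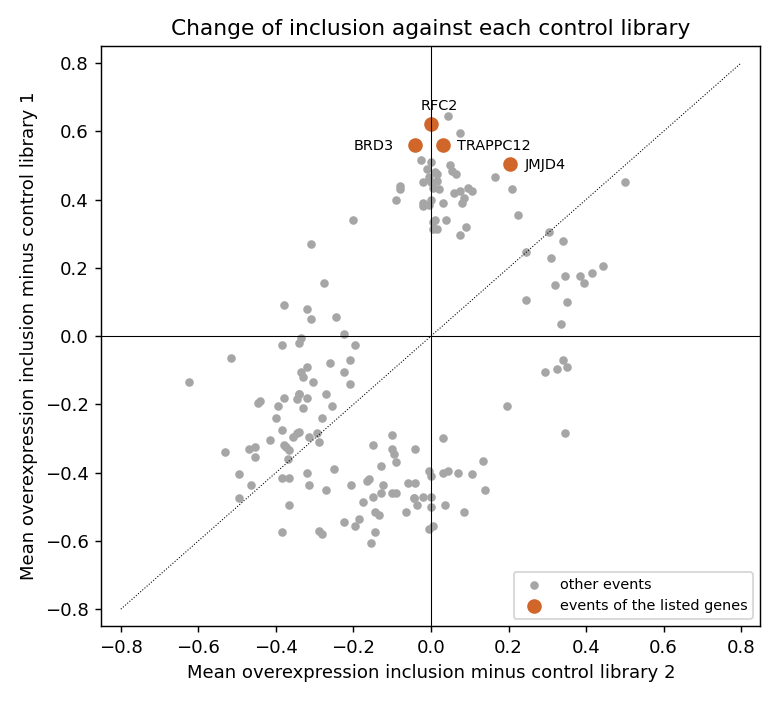
Mean inclusion of the overexpression libraries minus control library 2 (x axis) and minus control library 1 (y axis), as fractions, for the 173 events with 4 values. Both axes share the overexpression mean. RFC2, BRD3 and TRAPPC12 (orange) lie above 0.5 on the y axis and near 0 on the x axis, and the JMJD4/SNAP47 event lies at 0.205 on the x axis.

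Other events with values in all 4 RNA-seq libraries were compared with the mean profile of the 8 genes by Euclidean distance. For control library 1 that mean covers only the 4 members with a value. The nearest events were in DPH3 (distance 0.0665), which makes the diphthamide of a translation factor, in TRPC4AP (0.231), and in an event whose gene had no symbol (0.237). DPH3 inclusion was 0.37 and 0.59 in control and 0.83 and 0.77 with overexpression.

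The ranking by inclusion did not use iCLIP signal, but an event needed an iCLIP peak in its span to be given a gene. ACAA1 was named through 1 U2AF2 peak of 3 reads in overexpression replicate 3 alone. The change of iCLIP signal between conditions was tested. Reads in the peaks of each gene were summed per library and divided by a size factor of the library. These normalised reads were compared between conditions with limma over every gene that had peaks in 50% or more of a protein's libraries, and over all event spans in the same way. Reads in iCLIP peaks depend on how much RNA a gene makes as well as on binding, and the files hold no expression level, so the 2 cannot be told apart. In simulated data the same fit also called unchanged genes for hnRNPA1 and U2AF2, so calls for these 2 proteins can include unchanged genes. Over all genes tested, 4.31% were called higher and 34.1% lower for hnRNPA1, 27.5% higher and 16% lower for U2AF2, and 6.38% higher and 1.95% lower for SRSF1 (limma, Benjamini-Hochberg adjusted p below 0.05). Of the 8 genes, 6 could be tested for hnRNPA1 (1 higher, 1 lower), 7 for U2AF2 (1 higher, 0 lower) and 3 for SRSF1 (1 higher, 0 lower), too few to compare with these shares. The lower hnRNPA1 gene, BRD3, and the higher SRSF1 gene, TRAPPC12, had no peak in the other condition and met the filter only through the condition where they were high, so they had to differ and nothing is read from these calls. At an unadjusted limma p below 0.05 the only member added to these calls was RFC2, lower for SRSF1 (7.27% of all genes lower at that threshold), and U2AF2 stayed at 0 lower (18.6% of all genes). The median log2 difference of the tested members was -0.22 for hnRNPA1, -0.01 for U2AF2 and 0.13 for SRSF1, against -1.62, 0.76 and 0.36 over all genes tested. Genes without a listed peak in a library enter these medians and shares as 0 there. The smallest listed hnRNPA1 peak took 2.35 and 2.71 normalised reads in control and 13.4 and 14.2 with overexpression. For U2AF2 it took 10.2 to 17.3 in control and 0.935 to 3.05 with overexpression. No change of binding over all genes is read from the medians.

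The hnRNPA1 signal on NCOA1 rose with overexpression. It was 63.3 and 88.1 normalised reads in control and 208 and 238 in overexpression libraries, so the groups did not overlap. The means were 75.7 ± 17.5 and 223 ± 21.6 (SD, n = 2 each), a log2 difference of 1.56 ± 0.24 (SE, limma adjusted p = 0.0198). All hnRNPA1 peaks of NCOA1 lay between 24715781 and 24959401 on chromosome 2, before the event span, and none lay inside it. The call was lost without control replicate 1 (1.30, adjusted p = 0.122), with quantile normalization (1.61, adjusted p = 0.061) and with the number of peaks (0.93, adjusted p = 0.0989). U2AF2 signal on NCOA1 overlapped between conditions, at 66.2 to 140 and 84.8 to 110 normalised reads (log2 difference -0.17 ± 0.32, limma adjusted p = 0.699). It passed as lower when peaks were held to a common minimum of normalised reads in all libraries (-6.32, limma adjusted p = 0.000622). That setting drops all peaks below 17.3 normalised reads, which the overexpression libraries could list from 0.935 to 3.05 upwards. Nothing is read from that call.

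BRD3 had hnRNPA1 peaks in control libraries only. Its signal was 8.21 and 10.8 normalised reads in control and 0 in both overexpression libraries. The smallest peak that could be listed in the overexpression libraries corresponds to 13.4 and 14.2 normalised reads, above the control level, so a loss was not detectable at this depth. Under quantile normalization the difference was 0.013, in the other direction. The same holds inside the BRD3 span, where 5.47 and 5.87 normalised reads in control stood against 0. Gene and span met the filter only through the control libraries, so their calls support nothing. The U2AF2 signal of BRD3 was 0, 15.9 and 23.8 normalised reads in control and 3.85, 7.62 and 8.73 with overexpression, which overlap.

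Other members did not pass for hnRNPA1. On TRAPPC12 it was 40.3 and 45.2 normalised reads in control and 59.1 and 95.8 with overexpression (log2 difference 0.80 ± 0.34, limma adjusted p = 0.184). The groups did not overlap, and the difference was 1.23 without overexpression replicate 1, with 1 overexpression library left. It passed with the common minimum (5.56, limma adjusted p = 0.00193). That setting drops all peaks below 14.2 normalised reads, which the control libraries could list from 2.35 and 2.71 upwards, so nothing is read from that call. DDX11 had 71.8 and 90.7 against 49.6 and 125, and RFC2 had 23.9 and 35.2 against 0 and 15.6. ENDOV had 4.97 and 7.04 in control against 26.0 and 0 with overexpression. Without overexpression replicate 2 the log2 difference was -5.29 for RFC2 and 2.02 for ENDOV, and without overexpression replicate 1 it was -3.14 for ENDOV. Each value rests on 1 remaining overexpression library that is assumed to vary like the others. For both falls that library held no peak of the gene. The gene then met the filter only through control and had to be lower, so nothing is read from these falls. ACAA1 had no hnRNPA1 peak in any library, and JMJD4 had 1, in control replicate 1.

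U2AF2 signal on RFC2 was called higher with overexpression, as were 27.5% of all genes tested. It was 29.1, 52.0 and 61.1 normalised reads in control and 101, 111 and 134 with overexpression, with no overlap. The means were 47.4 ± 16.5 and 116 ± 17.0 (SD, n = 3 each), a log2 difference of 1.32 ± 0.33 (SE, limma adjusted p = 0.0208), while the median of all genes lay at 0.76. The call was lost with the number of peaks (0.84, adjusted p = 0.0797) and without overexpression replicate 1, 2 or 3 (adjusted p = 0.105, 0.0783 and 0.0509). With peaks held to a common minimum of normalised reads in all libraries the difference was -0.11. That setting drops all peaks below 17.3 normalised reads, which the overexpression libraries could list from 0.935 to 3.05 upwards, so nothing is read from that value. Since the overexpression libraries could list weaker peaks, their depth cannot be told apart from a gain. SRSF1 signal on RFC2 was 13.1, 16.2 and 30.0 normalised reads in control and 5.27, 6.58 and 7.68 with overexpression. These groups did not overlap either, and the difference of -1.40 ± 0.58 did not pass (limma adjusted p = 0.26).

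In DDX11 U2AF2 signal was 282, 328 and 405 normalised reads in control and 176 and 183 in overexpression replicates 2 and 1. Overexpression replicate 3 listed no DDX11 peak and, in the region that the DDX11 peaks of the other libraries cover, 0 peaks of any gene. In that library 191 of 5760 genes with at least 100 reads in both other overexpression libraries also had no peak, and the cause was not tested. With this 0 the difference did not pass (limma adjusted p = 0.237), and without the library it was -0.88 (limma adjusted p = 0.0252). DDX11 had the most SRSF1 signal among the members, 48.3 to 74.6 normalised reads in control and 59.2 to 81.3 with overexpression, which overlap (log2 difference 0.13 ± 0.27, limma adjusted p = 0.813).

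U2AF2 signal on JMJD4 was 20.2, 0 and 0 normalised reads in control and 14.1, 15.9 and 21.3 with overexpression (limma adjusted p = 0.149). Without control replicate 1, the only control library with a peak, it passed as higher (4.45, adjusted p = 0.00134), and so did the span. Gene and span then met the filter only through overexpression and had to differ, so nothing is read from these calls. The 3 overexpression libraries had 33, 36 and 34 reads in 1 peak at the outer end of the span, where control replicate 1 had 7. A peak smaller than 10.2 to 17.3 normalised reads could not be listed in the control libraries. In 2 of those overexpression libraries SNAP47 had a peak of 14 reads at the same place on the plus strand. Over the whole of SNAP47, U2AF2 signal fell, from 23.8, 30.6 and 40.5 normalised reads in control to 3.05, 5.99 and 9.98 (log2 difference -2.24 ± 0.64, limma adjusted p = 0.0344). SNAP47 was looked at after the exon match had been seen. ENDOV had U2AF2 peaks in 3 of 6 libraries, and ACAA1 in overexpression replicate 3 alone, with 14 reads over the gene.

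**Figure D3:**
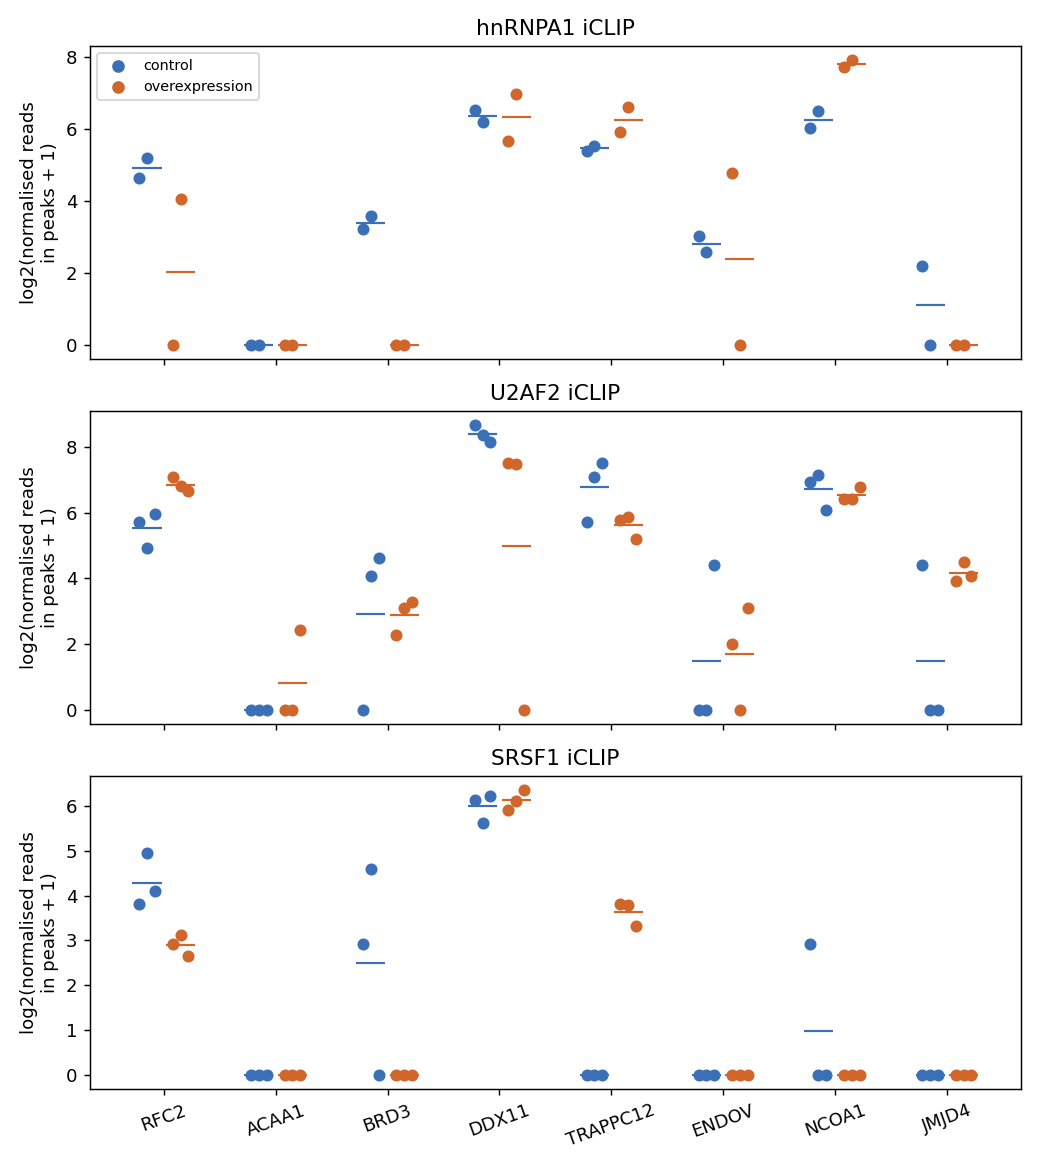
Reads in peaks of each gene as log2(normalised reads + 1) on the y axis, for the 3 proteins, with 1 point per library (blue control, orange overexpression) and short lines for condition means. U2AF2 on RFC2 and hnRNPA1 on NCOA1 lie higher in all overexpression libraries, and the U2AF2 point of DDX11 at 0 is overexpression replicate 3.

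U2AF2 signal over the TRAPPC12 event span, 13337 nt long, was called lower with overexpression, as were 24% of all spans tested. Its log2 difference stood at percentile 10.9 of the 183 spans, and the exon itself was not tested. Inside the span U2AF2 signal fell from 28.9, 63.5 and 100.2 normalised reads in control to 7.27, 3.05 and 2.18 with overexpression, with no overlap. The means were 64.2 ± 35.6 and 4.17 ± 2.72 (SD, n = 3 each), a log2 difference of -3.61 ± 0.74 (SE, limma adjusted p = 0.00823 over 183 spans, of which 24% were called lower and 20.8% higher). The smallest peak that could be listed corresponds to 0.935 to 3.05 normalised reads in the overexpression libraries and 10.2 to 17.3 in control, so the overexpression libraries could list weaker peaks than the control libraries. The call held without each library in turn (adjusted p from 0.00427 to 0.0258) and with a minimum of 6 reads per peak for all U2AF2 libraries (-4.16, adjusted p = 0.0173), and was lost with the number of peaks (-1.16, adjusted p = 0.164). Over the whole gene U2AF2 signal was 52.0, 135 and 180 normalised reads in control and 35.5, 53.5 and 57.9 with overexpression. The difference of -1.16 ± 0.51 did not pass (limma adjusted p = 0.118) and passed without control replicate 1 (-1.71, adjusted p = 0.00897). It also passed with the common minimum (-6.62, adjusted p = 0.000111). That setting drops all peaks below 17.3 normalised reads, so nothing is read from that call.

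Of the 7 U2AF2 control peaks in the span, 2 crossed the start of the 101 nt exon printed above, which occupies positions 12098 to 12198 counted from 0 at the first base of the span. They ran from 12017 to 12128 in control replicate 1 (10 reads) and from 11999 to 12167 in replicate 3 (18 reads). In control replicate 2 a peak of 24 reads ended 93 nt before the exon. Replicate 3 had further peaks that ended 257, 346 and 4279 nt before it (8, 19 and 8 reads), and 1 of 6 reads that started 212 nt after it. Within the 500 nt before the exon and on the exon the U2AF2 peaks of control replicates 1, 2 and 3 held 10, 24 and 45 reads, against 0, 0 and 0 with overexpression. This window was chosen after the peaks had been seen and carries no test. In overexpression replicates 1 and 2 a U2AF2 peak lay in the intron after the exon, from 12900 to 12999 (9 reads) and from 12964 to 13029 (6 reads). TRAPPC12 inclusion in the RNA-seq libraries was 0.34 and 0.87 in control, as given above, and 0.94 and 0.86 with overexpression, so the groups overlapped in inclusion where they did not overlap in U2AF2 signal.

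hnRNPA1 and SRSF1 also had peaks in the TRAPPC12 span. The hnRNPA1 overexpression libraries had a peak at 12696 to 12741 (11 reads) and at 12699 to 12732 (10 reads), in the intron after the exon, where hnRNPA1 control libraries had none. Control replicate 2 had an hnRNPA1 peak of 8 reads that ended 17 nt before the exon. Over the span hnRNPA1 signal was 7.82 and 7.23 normalised reads in control and 26.0 and 22.3 with overexpression, with no overlap. The difference of 1.56 ± 0.75 did not pass over 167 spans (limma adjusted p = 0.249, where 3.59% were called higher and 28.1% lower). It passed when only spans listed in all 4 libraries were fitted (adjusted p = 0.0359). With the common minimum it was 4.20 (limma adjusted p = 0.000673). That minimum, 14.2 normalised reads, removed every control peak of the span (3.13 to 4.69). The span then met the filter only through overexpression and had to differ, so nothing is read from that call. The smallest peaks that could be listed in the overexpression libraries, 13.4 and 14.2 normalised reads, lie above the control values.

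SRSF1 had no TRAPPC12 peak in any control library and peaks in all 3 overexpression libraries. Inside the span the latter had 6.58, 12.8 and 9.03 normalised reads. Over the gene they had 13.2, 12.8 and 9.03. Gene and span met the filter only through the overexpression libraries and so had to differ, and their calls support nothing. The smallest peak that could be listed in the control libraries corresponds to 5.62, 9.98 and 6.49 normalised reads, close to these values. The peaks lay at different places: 1 of 14 reads at the first exon of the span, 1 of 6 reads that ended 149 nt before the cassette exon, and 3 of 6 reads each further upstream. The gene call was lost without control replicate 2 or 3 (limma adjusted p = 0.0747 and 0.0708), and without any 1 overexpression library neither gene nor span met the filter.

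**Figure D4:**
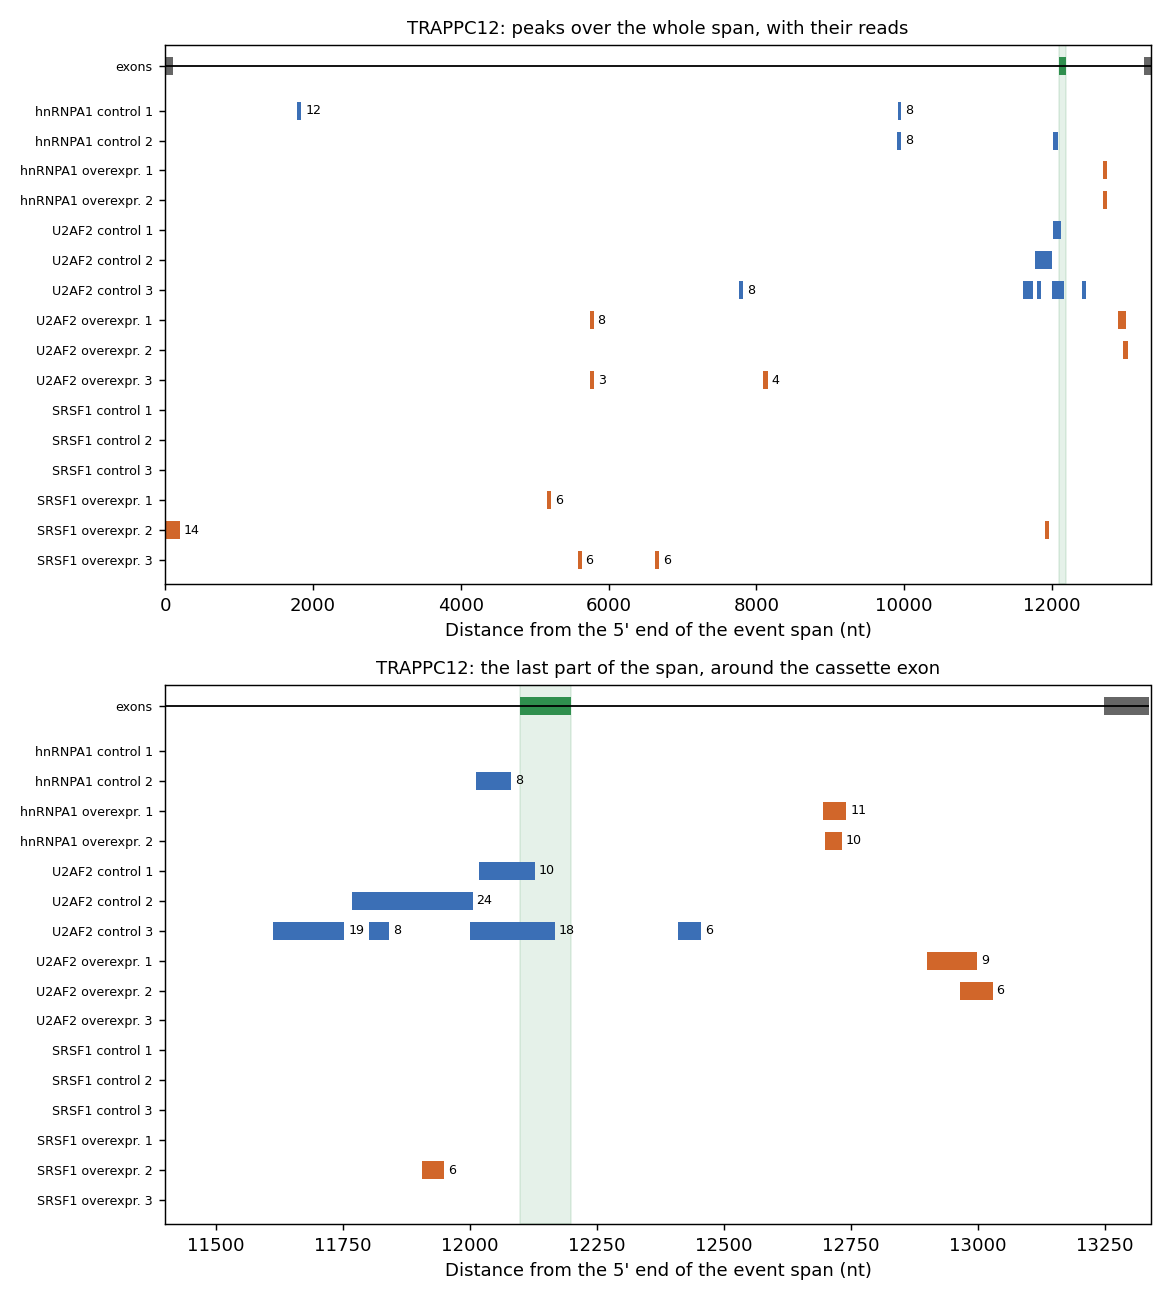
Peaks of the 3 proteins in the TRAPPC12 span by library, against the distance from its 5′ end in nt (x axis), with reads beside each peak, in the lower panel for the last part (blue control, orange overexpression; green the 101 nt cassette exon, grey its neighbours). U2AF2 control peaks of 8 to 24 reads lie within 500 nt before the exon or on it, where U2AF2 overexpression libraries have none.

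In RFC2 and BRD3 the overexpression libraries shared U2AF2 sites inside introns. In RFC2 a peak of 21, 8 and 17 reads lay at positions 2741 to 2805, 2744 to 2782 and 2723 to 2801 of the span in overexpression replicates 1, 2 and 3, and it ended 212 to 235 nt before the 102 nt candidate exon. No U2AF2 control library listed a peak there, and control replicate 1 had 8 reads 52 nt after that exon. In BRD3 a peak of 9, 9 and 15 reads started 1816 to 1818 nt after the 236 nt exon in the 3 overexpression libraries, and 1 peak of 6 reads lay on the exon in overexpression replicate 2. The control libraries had 1 U2AF2 peak in that span, of 8 reads, at another place. Over the spans the differences were 1.68 ± 1.40 for RFC2 and 1.34 ± 1.14 for BRD3, and neither passed (limma adjusted p = 0.39 and 0.396). RFC2 passed without control replicate 1 (3.48, adjusted p = 0.00527), the library with the 8 reads, and BRD3 without control replicate 3 (2.77, adjusted p = 0.00168). In each case the control libraries left held no peak, so the span had to differ and nothing is read from these calls. In the control libraries a peak under 10.2 to 17.3 normalised reads could not be listed, and the overexpression values of 4.06 to 12.4 (RFC2) and 3.85 to 7.62 (BRD3) lie mostly below that, so a gain was not detectable at this depth. The BRD3 span held no SRSF1 peak in any library.

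**Figure D5:**
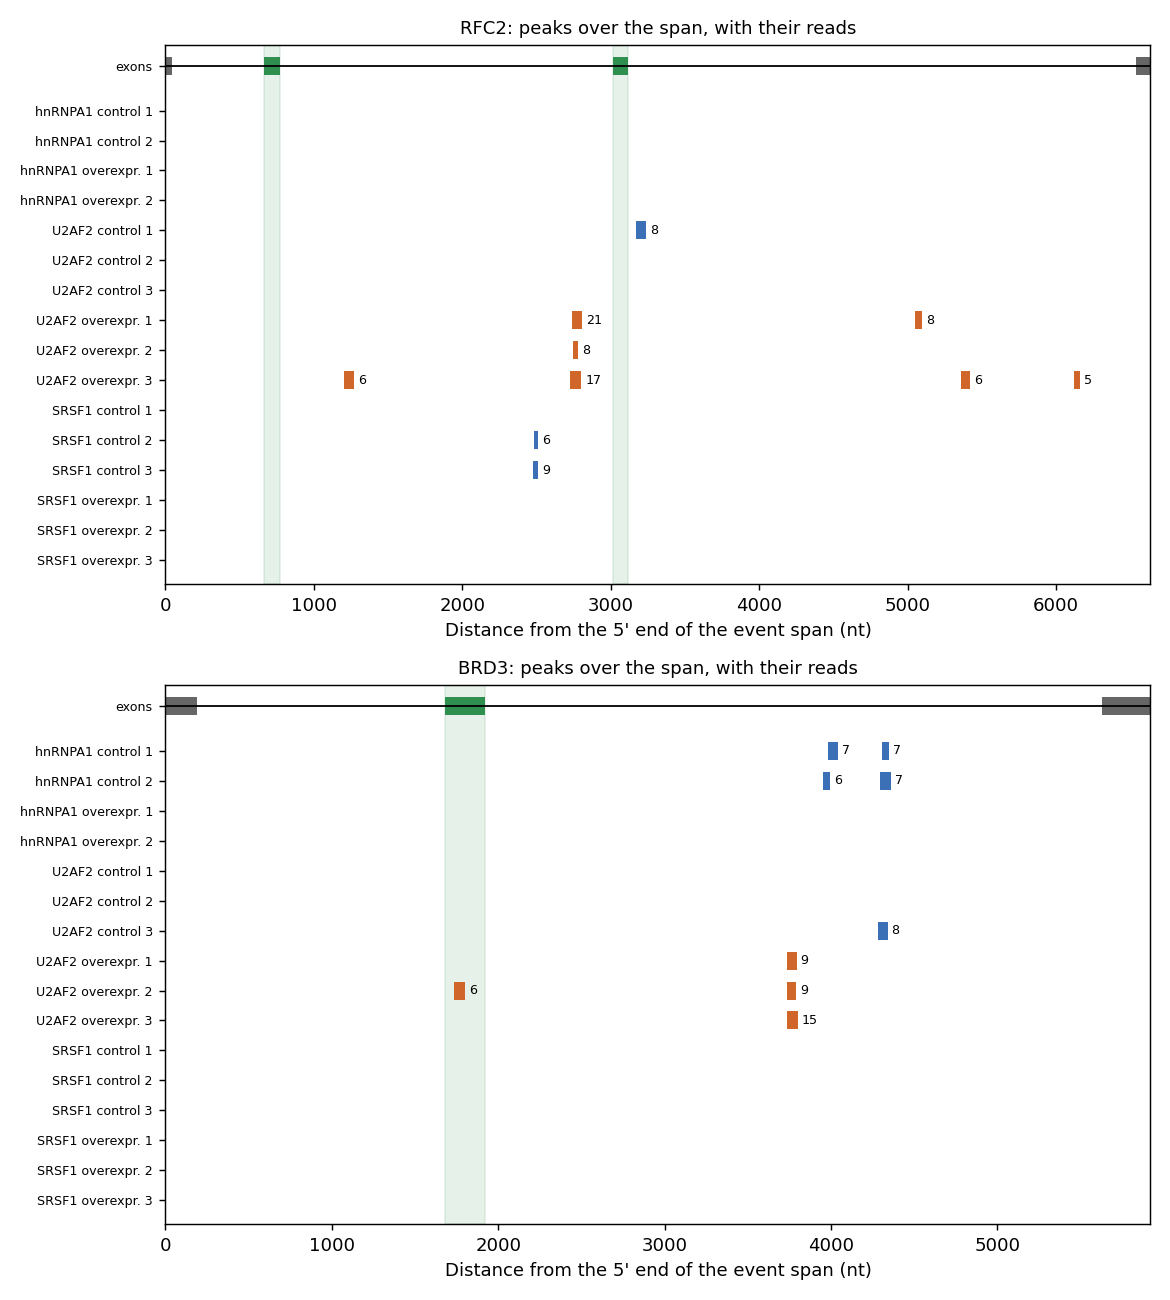
Peaks in the RFC2 and BRD3 spans by library, against the distance from the 5′ end in nt, drawn as for TRAPPC12 (green the candidate cassette exons). The 3 U2AF2 overexpression libraries share a peak before the second RFC2 candidate exon and another in the BRD3 intron after the exon.

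In DDX11 the span had hnRNPA1 signal of 32.8 and 8.58 normalised reads in control and 21.3 and 53.5 with overexpression, and all 4 hnRNPA1 libraries had a peak that covers positions 1604 to 1634. The difference did not pass (limma adjusted p = 0.564) and was 1.69 without overexpression replicate 1, with 1 overexpression library left. With the common minimum it was 4.47 (limma adjusted p = 0.00442). That minimum, 14.2 normalised reads, removed every control peak of the span (3.16 to 12.9). The span thus had to differ, and nothing is read from that call. In ENDOV hnRNPA1 signal was 7.04 and 4.97 in control against 26.0 and 0. The NCOA1 span had 1 SRSF1 peak of 7 reads in control replicate 1 and 2 U2AF2 peaks of 5 and 6 reads in overexpression replicate 3. The ACAA1 span, with the most uniform gain of inclusion, had 1 peak in all, of 3 reads, in U2AF2 overexpression replicate 3. In all, 6 of the 8 spans could be tested for U2AF2 (1 lower, 0 higher, where 24% of all spans were called lower and 20.8% higher), 4 for hnRNPA1 (1 lower, 0 higher, against 28.1% and 3.59%) and 1 for SRSF1 (1 higher, 0 lower, against 16.1% and 3.23%). The hnRNPA1 call is the BRD3 span and the SRSF1 call the TRAPPC12 span, both set by the filter as said above. The JMJD4/SNAP47 span, tested for U2AF2, was summed on the minus strand of JMJD4, opposite to the SNAP47 exons that fit it.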

How the data were processed

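The 8 genes and the lists of related genes were chosen with earlier results of these data known. Peaks were called in each iCLIP library with CLIPper after TopHat alignment (hg19), per the file headers. The submitters' processing notes name Bowtie2 too, without versions. Each deposited peak has coordinates, a p-value and, in its name, a gene ID and a count of reads. The authors' deposited MISO table gives exon inclusion as a fraction per library, its difference, and a Bayes factor as a ratio per pair. 17814 of 19362 gene IDs matched the name table.

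Reads in deposited peaks were summed per gene, or per span on its strand, and divided by median-of-ratios size factors. In spans, peaks of other genes that overlap a peak of the assigned gene in the same library were counted once. log2(value + 1) was fitted with limma 3.58.1 in R 4.3.3 (lmFit, eBayes with trend), two-sided, with Benjamini-Hochberg adjustment over all genes or spans and a threshold of 0.05. The fit was tested on data simulated at the depths of these libraries, with sums below 6 reads set to 0. Unchanged genes were also called for hnRNPA1 and U2AF2 but not for SRSF1, and the cause was not tested. Named genes are the 8 members, at most 2 rises and 2 falls of related genes per protein, the 3 most similar events and the event just outside. Peaks alike in interval and reads were at most 0.0693% between replicates, so no library is a copy of another. Each library was counted as a sample, but this check cannot tell whether they came from separate cultures. Same-numbered libraries did not deviate together, so numbers were not taken to pair them. PCR duplicates cannot be told apart in these files. The sequence of the BRD3 exon is not reported here.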

Additional observations from a re-analysis of the deposited data

How the results depend on the processing

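With the number of peaks in place of reads, the count of members called fell to 0 for hnRNPA1 genes higher, U2AF2 genes higher and U2AF2 spans lower. With quantile normalization it was 0 for hnRNPA1 genes higher and lower and for SRSF1 genes higher. Among features with a peak in every library it was 0 for hnRNPA1 genes and spans lower and for SRSF1 genes and spans higher, and 1 for hnRNPA1 spans higher. With the common normalised minimum it was 2 for hnRNPA1 genes and spans higher and for U2AF2 genes lower, and 0 for hnRNPA1 genes and spans lower, U2AF2 genes higher and SRSF1 genes and spans higher. The 2 hnRNPA1 spans, DDX11 and TRAPPC12, kept no control peak under that minimum and had to differ, so nothing is read from them. SRSF1 genes higher also fell to 0 with no filter, with a pseudocount of 5 and with the replicate number as a block. The block changed no other count of members. Same-numbered libraries had correlations of deviations of at most 0.0509, which cannot decide whether they shared a batch.

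Leaving out 1 library at a time gave 0 to 2 calls for hnRNPA1 genes higher, hnRNPA1 genes lower, U2AF2 genes higher, hnRNPA1 spans lower and U2AF2 spans higher. It gave 0 to 1 for U2AF2 genes lower, SRSF1 genes higher, hnRNPA1 spans higher and SRSF1 spans higher. Some added calls arose where the libraries left in 1 condition held no peak, as said above for RFC2, ENDOV, BRD3 and JMJD4. Nothing is read from those. The median gain of inclusion was 0.305 to 0.56, the latter without control replicate 2, over the 4 events that keep a control value, and that of BRD3 -0.04 to 0.56.

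Log2 differences that turned their sign were as follows, and the cause was not tested. Only that of hnRNPA1 on ENDOV without overexpression replicate 2, over the gene and the span, was called then. For hnRNPA1 genes quantile normalization gave 0.013 for BRD3, 0.24 for DDX11 and 2.03 for ENDOV. The number of peaks gave 0.13 for DDX11 and -0.11 for TRAPPC12, the common minimum 0.44 for DDX11, and a pseudocount of 5 gave 0.18 for ENDOV. Leaving out libraries gave -0.67 to 0.70 for DDX11 and -3.14 to 2.02 for ENDOV. For U2AF2 genes the total-read scale gave 0.60 for BRD3 and 0.63 for NCOA1, the number of peaks 0.056 for TRAPPC12 and 0.67 for NCOA1, and the common minimum -0.11 for RFC2. ENDOV was at -1.56 with quantile normalization and -0.12 with a pseudocount of 5. Leaving out libraries gave -1.52 to 0.91 for BRD3 and -0.52 to 1.00 for ENDOV. For SRSF1, DDX11 was at -0.061 on the total-read scale, at -0.54 with the common minimum and at -0.10 to 0.31 without single libraries. Over the ENDOV span a pseudocount of 5 gave 0.18 for hnRNPA1 and -0.18 for U2AF2, and leaving out libraries -3.14 to 2.02 and -0.62 to 0.86.

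Of the other values for single genes and events, 357 did not change in call or moved within the spread, 25 lost and 17 gained a call. Peaks of at least 6 reads in every U2AF2 library, over spans, were added after seeing the data. An alternative on read classes for inclusion was not run, since the table used here gives none.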

Other observations

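Genes that work with the 8 members were listed by function, and 70 of 71 had an ID in the name table. U2AF2 signal was called higher in 11 and lower in 10 of 59 tested, hnRNPA1 signal in 5 and 9 of 58, and SRSF1 signal in 0 and 0 of 26 (limma adjusted p below 0.05). Over all genes tested 27.5% were called higher and 16% lower for U2AF2, 4.31% and 34.1% for hnRNPA1, and 6.38% and 1.95% for SRSF1. All 9 hnRNPA1 genes called lower had no peak with overexpression, so they met the filter only through control and had to differ. Of the 11 U2AF2 genes called higher, BRDT, TRAPPC4, TRAPPC6A, MPG and RIOX2 had no peak in control and met it only through overexpression. Nothing is read from these calls, and the shares over all genes were not cleared of such genes. In the clamp loader list of RFC2, U2AF2 signal fell in 4 of 10 and rose in 0. RFC3, another clamp loader subunit, fell from 5337 ± 121 to 365 ± 41.1 normalised reads (log2 difference -3.87 ± 0.13, n = 3 each, limma adjusted p = 0.000131). In the TRAPP complex list 4 of 10 rose and 2 fell, with TRAPPC9 at 3.40 ± 5.88 and 100.5 ± 21.7 (adjusted p = 0.00981). Of the 4, TRAPPC4 (0 in control and 12.5 ± 3.85 with overexpression) and TRAPPC6A (0 and 4.30 ± 0.606) met the filter only through overexpression and lie at or below the 10.2 to 17.3 that the smallest listed control peak takes. The call of TRAPPC9 was lost without overexpression replicate 1 (adjusted p = 0.0514). ADARB1, an RNA-editing enzyme that makes inosine, fell from 379 ± 49.6 to 37.8 ± 11.5 (-3.33 ± 0.25, adjusted p = 0.000207). BRDT, the testis BET gene, had no U2AF2 peak in control and 25.0 ± 1.69 normalised reads with overexpression, and met the filter only through the latter.

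In hnRNPA1 iCLIP, HSD17B4, an enzyme of peroxisomal fatty acid oxidation like ACAA1, rose from 39.2 ± 3.40 to 118 ± 16.2 normalised reads (1.56 ± 0.22, n = 2 each, limma adjusted p = 0.0163). EP300, an acetyltransferase that works with NCOA1, rose from 147 ± 3.95 to 358 ± 84.5 (1.26 ± 0.22, adjusted p = 0.0267). Both calls were lost with quantile normalization (adjusted p = 0.061 each), with the common minimum (0.213 and 0.126) and without control replicate 2 (0.169 and 0.0639). That of HSD17B4 was also lost without control replicate 1 (0.255) and with the number of peaks (0.0733). PEX5 and RIOX2 had 21.7 ± 2.53 and 17.3 ± 2.09 normalised reads in control and 0 with overexpression, close to the 13.4 and 14.2 that the smallest listed peak takes there. They met the filter only through control, and both calls were lost with quantile normalization (adjusted p = 0.238 and 0.223).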
